A study of Mus musculus with 12 samples.

Results

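The respiratory chain subunits described here are the genes for structural proteins of complexes I to V of mitochondrial oxidative phosphorylation, chosen by gene symbol. The choice was made with earlier results of these data known. They comprise the Ndufa, Ndufb, Ndufc, Ndufs and Ndufv genes of complex I, Sdha to Sdhd of complex II, the Uqcr genes and Cyc1 of complex III, Cox4 to Cox8 genes of complex IV, Atp5 genes of complex V, and the mt-Nd, mt-Cytb, mt-Co and mt-Atp genes of the mitochondrial DNA. Of 103 matching genes, 94 reached at least 1 TPM in at least 3 libraries, out of 14510 such genes in the whole table. These 94 were 81 of 90 nuclear genes and 13 of 13 mitochondrially encoded genes. The 81 include Ndufb4c, which the annotation lists as a processed pseudogene, and a second Atp5o entry, a scarce read-through over Atp5o and Donson. TPM is transcript abundance corrected for length and scaled to a fixed total in each library. The study sequenced total RNA of intestinal epithelial cells from mouse jejunum in 12 libraries, with 3 in each of 4 groups, namely Fzd5KO at day 3, Ctrl at day 3, Fzd5KO at day 1 and Ctrl at day 1. Fzd5 encodes a Frizzled receptor for Wnt ligands. The labels do not state how Fzd5 was removed, the strain and age of the mice, or the event from which days were counted. They also do not say whether the replicates are different mice, so the spread behind every p-value is that of these libraries and could be technical.

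Complexes I and II pass electrons from NADH and succinate to ubiquinone, complex III passes them to cytochrome c, complex IV reduces oxygen, and complex V, the ATP synthase, uses the resulting proton gradient to make ATP. Most subunits are nuclear genes whose proteins are imported, while a small core of complexes I, III, IV and V is encoded by the mitochondrial DNA, which is transcribed as long polycistronic RNAs. Complex II is wholly nuclear. Absorptive enterocytes depend on oxidative phosphorylation for nutrient transport.

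Several mitochondrially encoded members share their sequence with pseudogenes on chromosome 1, and the sequences below show why their listed levels cannot be read alone. All coordinates are of GRCm38 (mm10). For mt-Co2, subunit 2 of complex IV (chrM:7013-7696, plus strand), the pseudogene Gm28661 (chr1:24614885-24615565, minus strand) is identical over its 681 bases, and the 1st 40 bases of both are shown. For mt-Nd3, a complex I subunit, Gm28438 (chr1:24612775-24613119, minus strand) differs at 1 of 345 bases, T3C. For mt-Co1, the catalytic subunit 1 of complex IV (chrM:5328-6872, plus strand), Gm29216 (chr1:24615706-24616197, minus strand) covers 492 of 1545 bases. Compared without gaps it differs at 6, namely T1056A, C1057T, A1059G, A1060G, C1062A and A1066T. These lie together near the 5′ end of the copy. BLAST aligned only 483 bases, from position 1063 on, at 99.8% identity. Positions count from 1 at the 5′ end of the mitochondrial gene, whose base is given first, and capitals mark the bases that differ.
mt-Co2 (chrM:7013-7052) and Gm28661: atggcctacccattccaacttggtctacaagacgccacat
mt-Nd3 (chrM:9459-9476): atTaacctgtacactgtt
Gm28438: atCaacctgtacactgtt
mt-Co1 (chrM:6381-6408): ggTCtAAcCggaAttgttttatccaact
Gm29216: ggATtGGcAggaTttgttttatccaact

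The table placed nearly all of the abundance of these sequences with the nuclear copy for some members and with the mitochondrial gene for others. Gm28661 held 99.7 to 100% of the summed TPM of the copy and mt-Co2 across libraries, and Gm28437 held 97.4 to 99.03% of the sum with mt-Co3. Gm10925, identical to mt-Atp6 over 678 bases, held 87.6 to 95.9%, Gm28438 held 36.4 to 62.8% of the sum with mt-Nd3, and Gm10222 held 0 to 15.98% of the sum with mt-Nd4l. As deposited, mt-Co2, one of the most abundant mitochondrial mRNAs by its sum, was listed between 0 and 53.2 TPM, with 0 in 3 libraries. For these 5 members the sum with the copy is therefore given beside the deposited level. Mitochondrial reads and reads of the copies cannot be told apart over identical bases. Neighbouring mitochondrial genes also overlap, mt-Atp8 with mt-Atp6, mt-Nd4l with mt-Nd4, and mt-Nd6 with mt-Nd5 on the opposite strand, and no source used here gives the strand setting of the counting.

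**Figure D1:**
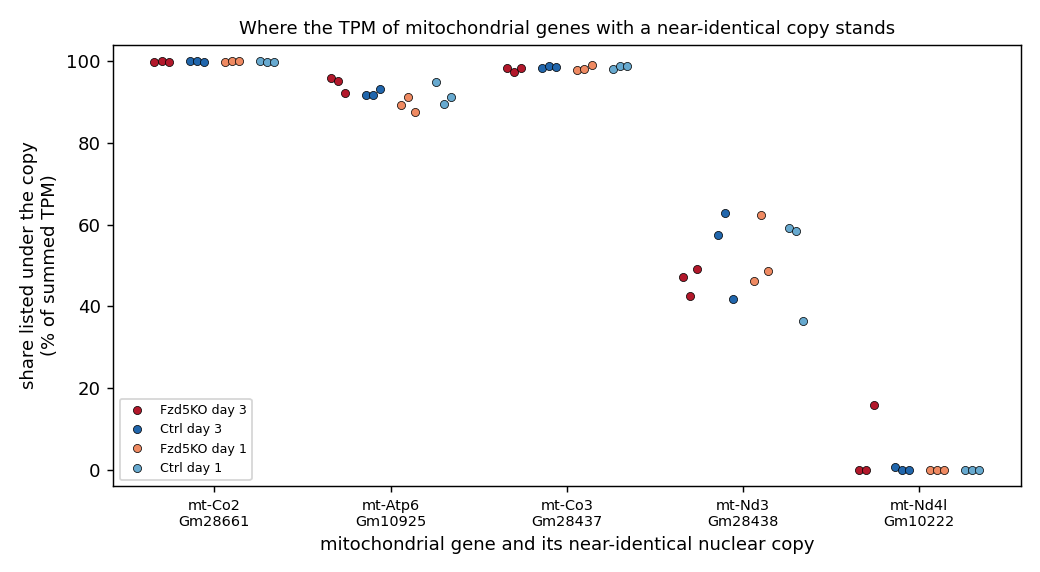
Share of the summed TPM of a mitochondrial gene and its near-identical nuclear copy that the table lists under the copy (percent, vertical axis), with 1 point per library in 4 groups. The share lies at 97.4% or more for mt-Co2 and mt-Co3 and between 0 and 15.98% for mt-Nd4l in every library.

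The libraries differed in other ways that bear on these members. Fzd5 was at 38.6 ± 0.970 TPM in Fzd5KO and 64.8 ± 3.95 TPM in Ctrl at day 3 (SD, n = 3 each), and at 32.7 ± 0.694 TPM in Fzd5KO and 46.6 ± 2.94 TPM in Ctrl at day 1, which is 59.5% and 70.2% of the Ctrl level (exact permutation test, two-sided, p = 0.1 on each day, the smallest that 3 against 3 libraries allow). Epithelial markers were abundant in every library. The summed level of 7 enterocyte markers was 34584 to 35673 TPM in Fzd5KO and 16432 to 17404 TPM in Ctrl at day 3, and that of 5 crypt-base stem cell markers was 50.3 to 52.7 TPM in Fzd5KO and 532 to 566 TPM in Ctrl at day 3. At day 1 these stem cell markers summed to 84.1 to 88.6 TPM in Fzd5KO and 352 to 369 TPM in Ctrl, and 5 of 5 fell on both days. T cell, B cell and myeloid markers were low throughout but higher in Fzd5KO at day 3, at 20.4 to 23.4, 17.6 to 19.4 and 18.1 to 20.0 TPM, against 6.76 to 8.58, 3.50 to 5.19 and 8.40 to 11.2 TPM in Ctrl at day 3. At day 1 they were at 18.15 to 23.15, 2.73 to 3.26 and 7.33 to 8.42 TPM in Fzd5KO. Ctrl at day 1 had 24.8 to 30.1, 4.08 to 6.26 and 7.93 to 8.63 TPM. For T cell markers, Ctrl at day 3 was thus the group that stood lowest. The summed cycling cell markers were lower in Fzd5KO at day 3, at 174 to 182 TPM, against 321 to 342 TPM in Ctrl, and 5 of 5 fell at day 3 and 3 of 5 at day 1. Erythroid markers were at 54.4 to 69.4 TPM in Fzd5KO and 201 to 228 TPM in Ctrl at day 3, and likewise 5 of 5 fell at day 3 and 3 of 5 at day 1. No marker of these lists was at 0 in all libraries. Their part in the results that follow was not tested, and in bulk RNA fewer cells of a type and less RNA per cell cannot be told apart.

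At day 3, transcripts of the mitochondrial DNA were lower in Fzd5KO than in Ctrl. Of 13 members, 9 fell and 0 rose, against 38.5% of all tested genes called lower and 24.3% called higher in this comparison (limma on log2(TPM + 1), Benjamini-Hochberg adjusted p under 0.05 over all tested genes). The 9 were 5 of 7 members of complex I, the only one of complex III, 1 of 3 of complex IV and 2 of 2 of complex V. The median log2 change of the 13 was -0.37, that of all tested genes -0.14. With the copies summed in, 11 of 13 fell (38.5% of all genes were called lower in that fit), all 13 were below 0 and the median was -0.34.

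Among complex I members, mt-Nd4, a proton-pumping core subunit (chrM:10167-11544), had 689, 644 and 610 TPM in Fzd5KO and 1054, 1049 and 901 TPM in Ctrl at day 3. The groups did not overlap, and the log2 change was -0.63 (SE 0.06, adjusted p = 5e-06). mt-Nd2, another pumping subunit (chrM:3914-4951), had 539, 537 and 491 TPM in Fzd5KO and 845, 773 and 747 TPM in Ctrl. All 3 Fzd5KO libraries lay below all 3 Ctrl libraries, with a change of -0.59 (SE 0.07, adjusted p = 1.25e-05). mt-Nd1, which helps to form the ubiquinone site (chrM:2751-3707), averaged 4032 ± 208 TPM in Fzd5KO and 5318 ± 422 TPM in Ctrl, a change of -0.40 (SE 0.06, adjusted p = 0.000127). mt-Nd4l (chrM:9877-10173) fell by 0.79 as listed (SE 0.11, adjusted p = 8.79e-05) and by 0.71 summed with Gm10222. mt-Nd5 (chrM:11742-13565), the large subunit at the end of the membrane arm, averaged 355 ± 12.99 TPM in Fzd5KO and 459 ± 33.5 TPM in Ctrl, a change of -0.37 (SE 0.05, adjusted p = 4.8e-05). mt-Nd6, the member encoded on the other strand (chrM:13552-14070), had 87.9, 74.0 and 82.2 TPM in Fzd5KO and 125, 85.0 and 102 TPM in Ctrl. Its groups overlapped, and its change of -0.33 did not pass (adjusted p = 0.0628). mt-Nd3 summed with Gm28438 averaged 5286 ± 163 TPM in Fzd5KO and 6192 ± 301 TPM in Ctrl, and fell by 0.23 (adjusted p = 0.0003).

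mt-Cytb, the only mitochondrially encoded subunit of complex III (chrM:14145-15288), had 2703, 2399 and 2428 TPM in Fzd5KO and 4150, 3663 and 3538 TPM in Ctrl at day 3. The groups lay well apart, with a log2 change of -0.59 (SE 0.08, adjusted p = 3.79e-05). The complex IV members moved less. mt-Co1 had 20946, 19523 and 19281 TPM in Fzd5KO and 25352, 22189 and 21930 TPM in Ctrl, a change of -0.22 (SE 0.06, adjusted p = 0.0114). That call was absent from the median-of-ratios fit (-0.07, adjusted p = 0.294), and its sign turned in the quantile fit (0.11, adjusted p = 0.528). Gm29216, the partial copy of mt-Co1, stood at 65.0 to 66.6% of the mt-Co1 level in Fzd5KO and 57.1 to 60.3% in Ctrl at day 3, and its own change of -0.06 did not pass (adjusted p = 0.491). mt-Co2 summed with its copy averaged 14747 ± 793 TPM in Fzd5KO and 16774 ± 1602 TPM in Ctrl (log2 change -0.18, adjusted p = 0.0319). mt-Co3 summed with its copy averaged 23177 ± 1262 TPM in Fzd5KO and 24171 ± 1394 TPM in Ctrl, and its change of -0.06 did not pass (adjusted p = 0.323).

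Both mitochondrially encoded members of complex V lie in its membrane part. mt-Atp8 (chrM:7766-7969) had 6327, 7129 and 5735 TPM in Fzd5KO and 9405, 7877 and 7123 TPM in Ctrl at day 3. The groups overlapped by 1 library each, at 7129 TPM in Fzd5KO and 7123 TPM in Ctrl, and the log2 change was -0.34 (SE 0.11, adjusted p = 0.0147). It did not pass without Fzd5KO day 3 replicate 3 (adjusted p = 0.0635) or Ctrl day 3 replicate 1 (adjusted p = 0.063), nor in the median-of-ratios fit (adjusted p = 0.0801) or the quantile fit (adjusted p = 0.134). mt-Atp6, the proton channel subunit (chrM:7927-8607), fell by 0.81 as listed (SE 0.28, adjusted p = 0.0272) but by 0.26 summed with Gm10925 (adjusted p = 0.00754), at 10161 ± 818 TPM in Fzd5KO and 12163 ± 1044 TPM in Ctrl. As listed it did not pass with median-of-ratios scaling (adjusted p = 0.0536), nor with replicate 1 or 2 of either genotype at day 3 left out (adjusted p between 0.0617 and 0.107).

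**Figure D2:**
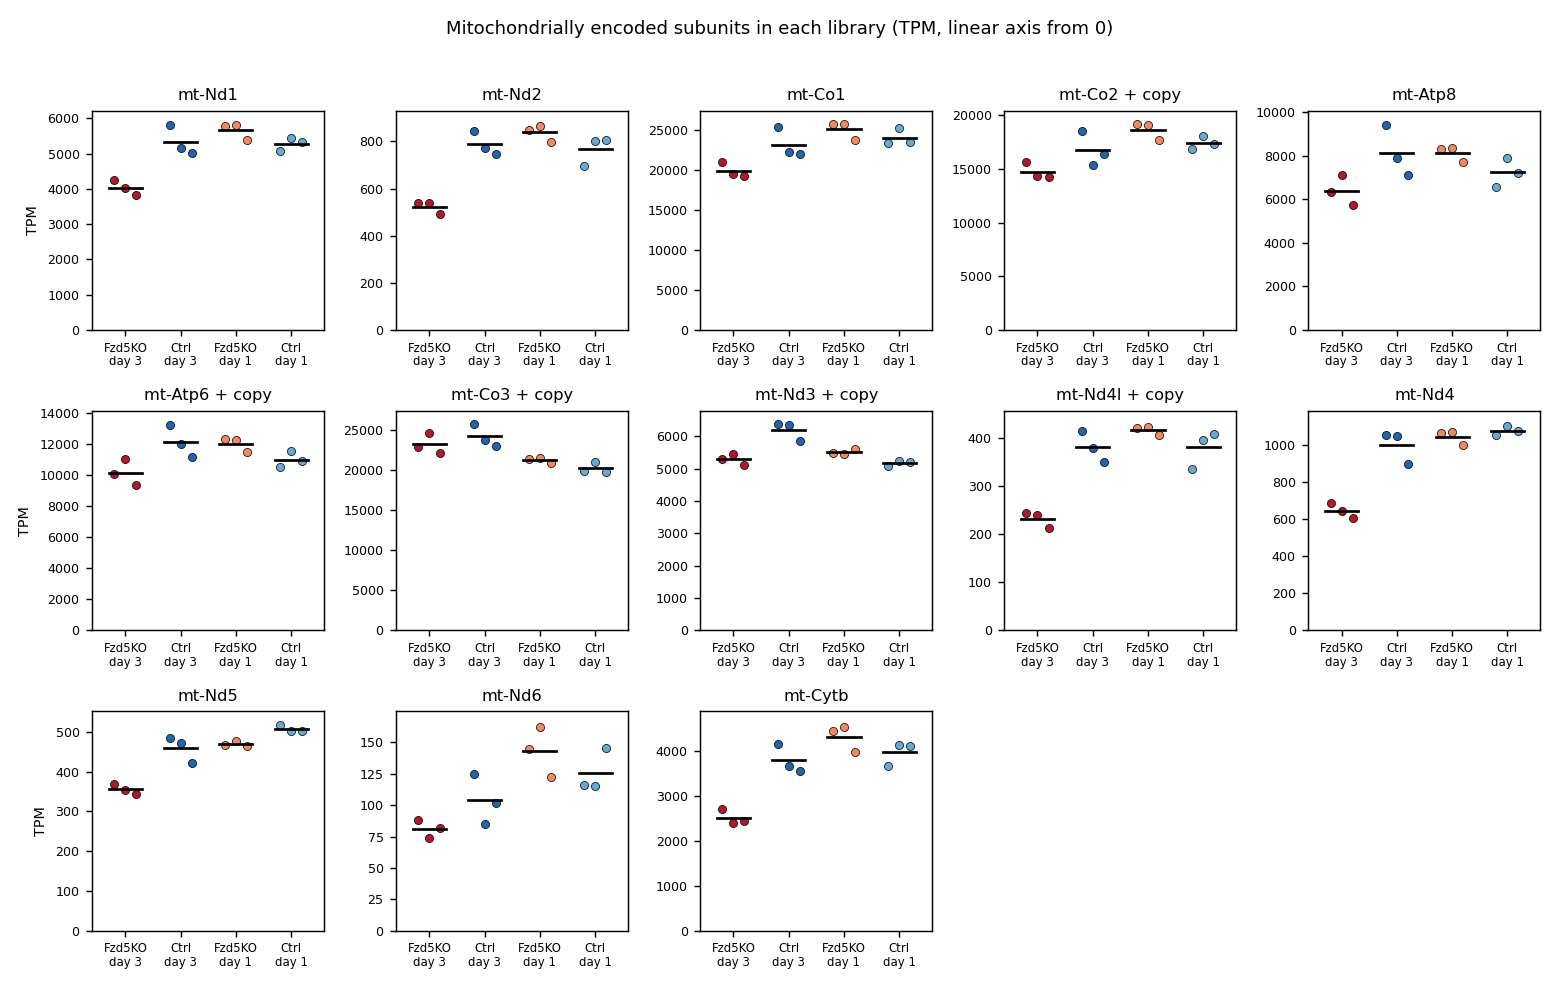
TPM of the 13 mitochondrially encoded members in each library (points) with the group mean (line), 1 panel per gene and 4 groups per panel, each axis starting at 0; panels marked "+ copy" show the sum with the near-identical nuclear copy. For mt-Nd4, the Fzd5KO day 3 libraries lie at 610 to 689 TPM, below the libraries of the other 3 groups.

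At day 1 no mitochondrially encoded member passed the test. Of the 13, 0 rose and 0 fell in the limma fit, where 2.13% of all tested genes were called higher and 22.8% lower. Their median log2 change was 0.12, that of all genes -0.14, and 10 of 13 were above 0. mt-Nd4 had 1067, 1071 and 1000.2 TPM in Fzd5KO and 1055, 1104 and 1077 TPM in Ctrl at day 1, which overlapped. mt-Cytb averaged 4313 ± 298 TPM in Fzd5KO and 3969 ± 259 TPM in Ctrl, and mt-Nd2 838 ± 36.1 TPM in Fzd5KO and 768 ± 62.3 TPM in Ctrl, neither of which passed. With median-of-ratios scaling, which moved the median of all genes up by 0.14 at day 1, 5 of the 13 were called higher (8.80% of all genes were higher and 6.28% lower with that scaling), so the number called at day 1 depends on the scaling. The median over the 13 was above 0 with that scaling too (0.28) and with quantile normalization (0.05).

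The effect of Fzd5KO on the mitochondrially encoded members differed between the days. The interaction (the Fzd5KO effect at day 3 minus that at day 1) was called negative for 9 of 13 and positive for 0, where 19.1% of all tested genes were called negative and 25.3% positive, and for 11 of 13 with the copies summed in (19.1% of all genes negative in that fit). The median difference was -0.51 log2 over the 13 and 0.01 over all tested genes. The largest differences as listed were -1.37 for mt-Atp6 (adjusted p = 0.0157), which came to -0.39 summed with its copy, -0.93 for mt-Nd4l (adjusted p = 0.000629) and -0.72 for mt-Nd2 (adjusted p = 7.78e-05). mt-Cytb differed by -0.71 (adjusted p = 0.000243), though with quantile normalization its difference of -0.49 did not pass (adjusted p = 0.0788). The effects at both days and the changes over time share their groups of libraries, so they are given side by side and not set against each other.

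Within Fzd5KO, 10 of 13 mitochondrially encoded members fell at day 3 relative to day 1 and 0 rose (10.5% of all tested genes were called lower and 34.4% higher), with 11 of 13 lower when the copies were summed in (10.5% of all genes in that fit). Within Ctrl only mt-Nd5 fell as deposited and 0 rose, where 11.0% of all tested genes were called lower and 25.0% higher. mt-Nd5 had 484, 471 and 421 TPM at day 3 and 516, 502 and 501.5 TPM at day 1 in Ctrl, a log2 change of -0.15 (adjusted p = 0.0367). The call was lost when Ctrl day 3 replicate 3, any Ctrl day 1 replicate or Fzd5KO day 1 replicate 1 was left out (highest adjusted p 0.104). Summed with its copy, mt-Nd3 was higher at day 3 in Ctrl without overlap, at 6192 ± 301 TPM against 5180 ± 81.6 TPM at day 1. The sum of mt-Co3 and its copy was likewise higher at day 3, at 24171 ± 1394 against 20173 ± 670 TPM in Ctrl. In Fzd5KO this sum was 23177 ± 1262 TPM at day 3 and 21200 ± 326 TPM at day 1, also without overlap. In Fzd5KO the changes over time were -0.78 for mt-Cytb (adjusted p = 6.27e-06), -0.80 for mt-Nd6 (adjusted p = 0.000771), -0.69 for mt-Nd4 and -0.33 for mt-Co1, and mt-Atp6 as listed fell by 1.24 (adjusted p = 0.00383). Summed with Gm10925, mt-Atp6 changed much less, at 10161 ± 818 TPM at day 3 and 12038 ± 457 TPM at day 1 in Fzd5KO, a ratio of 0.844. The mitochondrial ribosomal RNA mt-Rnr1, no member but transcribed from the same DNA, averaged 5960.2 ± 429 TPM in Fzd5KO and 8408 ± 395 TPM in Ctrl at day 3 (log2 change -0.50, adjusted p = 0.000155), and mt-Rnr2 did not pass at day 3 (-0.17, adjusted p = 0.0768).

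Because TPM shares a fixed total among all RNAs, each call was also read in 4 scalings, namely the deposited TPM, TPM without mt- genes and small structural RNAs, median-of-ratios scaling and quantile normalization. All genes with mt- symbols took 7.03 to 7.79% of the TPM in Fzd5KO and 8.37 to 9.70% in Ctrl at day 3, and 9.14 to 10.0% in Fzd5KO and 8.14 to 9.15% in Ctrl at day 1. The small structural RNAs took 24.1 to 25.9% in Fzd5KO and 25.3 to 28.5% in Ctrl at day 3. Of the 13, 6 were lower in Fzd5KO at day 3 in each of the 4 scalings, namely mt-Nd1, mt-Nd2, mt-Nd4, mt-Nd4l, mt-Nd5 and mt-Cytb (25.1% of all genes were lower in each of the 4 and 20.8% higher). For the interaction 6 were negative in each of the 4, mt-Nd1, mt-Nd2, mt-Nd4, mt-Nd4l, mt-Nd5 and mt-Atp6 (17.6% of all genes were negative in each and 18.5% positive). All 4 scalings used the listed values, so mt-Atp6 was read there without its copy.

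Nuclear members at day 3 were called lower more often than higher in Fzd5KO, and this split depended on the scaling. Of 81, 9 rose (11.1%, against 24.3% of all genes) and 34 fell (41.98%, against 38.5%), with a median log2 change of -0.08 and a range of -0.75 to 0.71. With median-of-ratios scaling, which raised the median of all genes by 0.12, 33 were called higher and 7 lower (31.5% of all genes higher and 29.3% lower). With quantile normalization 4 were called higher and 57 lower (27.5% of all genes higher and 30.3% lower). In each of the 4 scalings 3 were higher, Uqcrfs1, Cox7a1 and Cox6b2, and 7 were lower, Ndufb11, Ndufb5, Ndufs7, Ndufv2, Uqcr11, Cox7a2l and Atp5g2, of which Ndufb5, Ndufs7, Ndufv2 and Uqcr11 are named after their values were seen. The shares of 3 and 7 of 81 are below the background shares already given.

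By complex, nuclear members of complex I had 20 of 36 lower and 1 higher at day 3, where 38.5% of all genes were lower and 24.3% higher, and their median of -0.14 was that of all genes. With median-of-ratios scaling the split turned, with 9 of the 36 higher and 4 lower (31.5% and 29.3% of all genes). Ndufb11, an accessory subunit encoded on the X chromosome (chrX:20615326-20617619), had 47.0, 46.6 and 50.7 TPM in Fzd5KO and 68.2, 69.2 and 65.5 TPM in Ctrl. The groups were far apart, with a change of -0.48 (SE 0.04, adjusted p = 1.39e-06). Ndufs4, an accessory subunit needed for a stable NADH-oxidizing arm, was the member of complex I that rose, with 85.2, 87.4 and 92.1 TPM in Fzd5KO and 79.2, 73.2 and 78.5 TPM in Ctrl (0.19, SE 0.05, adjusted p = 0.00806). In the lower direction Ndufb5 changed by -0.28 (adjusted p = 8.64e-05), Ndufs7, which carries an iron-sulfur cluster, by -0.27 (adjusted p = 0.00053), and Ndufv2, an iron-sulfur subunit of the NADH-oxidizing arm, by -0.25 (adjusted p = 0.00239).

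Of the 4 complex II members, which are also the succinate dehydrogenase of the citric acid cycle, 2 rose and 0 fell at day 3 as deposited. Of all genes 24.3% rose and 38.5% fell. Sdhd, a membrane anchor, had 151, 155 and 158 TPM in Fzd5KO and 134, 134 and 131 TPM in Ctrl at day 3 (log2 change 0.22, SE 0.03, adjusted p = 4.63e-05). Sdhb, the iron-sulfur subunit, had 170.2, 181 and 178 TPM in Fzd5KO and 159, 157 and 149 TPM in Ctrl (0.19, SE 0.04, adjusted p = 0.00101). With quantile normalization these changes were -0.01 for Sdhd and -0.04 for Sdhb. Sdha, the flavoprotein, averaged 194 ± 7.05 TPM in Fzd5KO and 204 ± 2.52 TPM in Ctrl (-0.07, adjusted p = 0.222), and Sdhc, the other anchor, 99.8 ± 2.25 TPM in Fzd5KO and 107 ± 2.99 TPM in Ctrl (-0.10, adjusted p = 0.169).

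Complex III had 1 nuclear member of 9 higher and 3 lower at day 3 (24.3% of all genes higher and 38.5% lower). Uqcrfs1, the Rieske iron-sulfur protein (chr13:30540308-30545362), had 94.0, 91.3 and 95.5 TPM in Fzd5KO and 76.6, 77.2 and 72.6 TPM in Ctrl at day 3. The groups did not overlap (0.31, SE 0.04, adjusted p = 1.8e-05). Uqcr11, a small accessory subunit, averaged 244 ± 15.04 TPM in Fzd5KO and 302 ± 14.8 TPM in Ctrl (-0.30, SE 0.05, adjusted p = 0.000253). Uqcrfs1 thus rose while mt-Cytb of the same complex fell.

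Complex IV had 3 nuclear members of 14 higher and 4 lower at day 3 (24.3% of all genes higher and 38.5% lower). Cox7a1 (chr7:30184144-30186078), known as the isoform of heart and skeletal muscle, had 149, 146 and 145 TPM in Fzd5KO and 96.5, 93.9 and 91.7 TPM in Ctrl at day 3. Both groups were tight and far apart (0.64, SE 0.05, adjusted p = 7.61e-07). Muscle markers summed to 3.17 to 3.20 TPM in Fzd5KO and 2.98 to 3.85 TPM in Ctrl at day 3, and Cox6a2 and Cox8b, other isoforms of striated muscle, averaged at most 0.29 TPM in any group. Cox6b2, known as the isoform of testis, had 4.99, 4.28 and 5.17 TPM in Fzd5KO and 1.88, 2.78 and 3.09 TPM in Ctrl (0.71, SE 0.18, adjusted p = 0.00503), a low level at which log2(TPM + 1) understates a fold. Cox5a averaged 231 ± 14.2 TPM in Fzd5KO and 202 ± 14.96 TPM in Ctrl (0.19, adjusted p = 0.0406), a call lost without any of 7 libraries, namely Fzd5KO day 3 replicates 2 and 3, Ctrl day 3 replicates 2 and 3, and Fzd5KO day 1 replicates 1 to 3 (highest adjusted p 0.153).

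Complex V had 2 nuclear members of 18 higher and 7 lower at day 3 (24.3% of all genes higher and 38.5% lower). Atp5g2, 1 of the genes for the c subunit that forms the rotor ring (chr15:102662864-102672352), had 64.2, 74.4 and 68.1 TPM in Fzd5KO and 115, 121 and 114 TPM in Ctrl at day 3. It was the most strongly lowered nuclear member tested (-0.75, SE 0.06, adjusted p = 4.04e-07). With the TPM of its processed copy Gm10175 (chr7:23946646-23947290, 645 identical bases) added by length, which was chosen after the data were seen, it averaged 92.2 ± 6.55 TPM in Fzd5KO and 135 ± 9.87 TPM in Ctrl, a ratio of 0.684. Atp5g3 and Atp5a1, the ring subunit of another gene and the alpha subunit of the catalytic head, each rose by 0.09 (adjusted p = 0.0383 and 0.0187). The call of Atp5g3 was lost with replicate 2 or 3 of either genotype at day 3, or replicate 1 of Fzd5KO at day 1, left out (adjusted p up to 0.12), and that of Atp5a1 without Fzd5KO day 3 replicate 3 (adjusted p = 0.0736) or Ctrl day 3 replicate 3 (adjusted p = 0.0607).

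**Figure D3:**
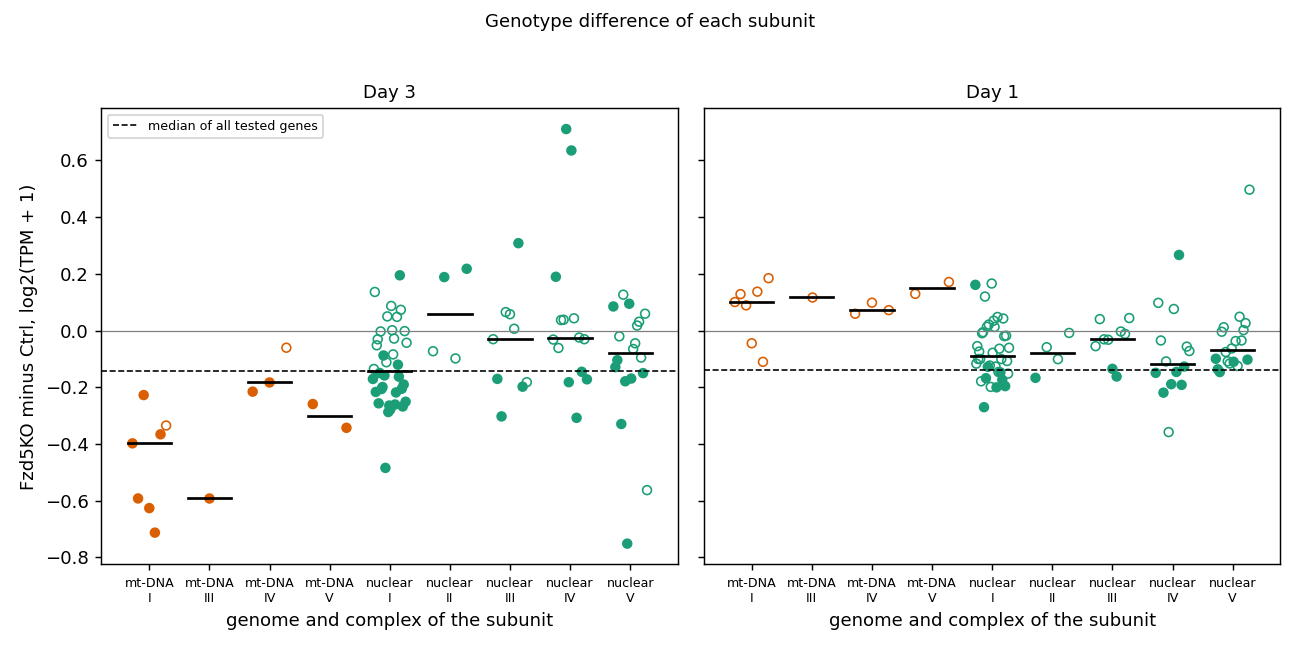
Log2 change of log2(TPM + 1), Fzd5KO minus Ctrl, of each member (points) at day 3 and at day 1, by complex and by genome, with mitochondrially encoded members summed with their near-identical copies. Filled points passed the adjusted p of 0.05, black bars are class medians and the dashed line is the median of all tested genes. At day 3 the mitochondrially encoded medians are -0.40, -0.59, -0.18 and -0.30 for complexes I, III, IV and V, and the nuclear ones -0.14, -0.03, -0.03 and -0.08.

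At day 1 the nuclear members showed small changes, with a median of -0.07. Of 81, 2 were higher (2.47%, against 2.13% of all genes) and 21 lower (25.9%, against 22.8%), with 7 of the 21 in complex I. These shares are near those of all genes. With median-of-ratios scaling 22 were higher and 0 lower (8.80% of all genes were higher and 6.28% lower). In each of the 4 scalings 2 were higher, Ndufa1 and Cox7a2l, and 0 lower (2.09% of all genes were higher in each and 5.26% lower). The direction of most nuclear members at day 1 therefore depends on the scaling. The largest decreases among the 21 at 5 TPM or more were -0.27 for Ndufa7 (adjusted p = 0.0149), -0.22 for Cox6a1 (adjusted p = 0.0176), -0.20 for Ndufb9 (adjusted p = 0.00737), -0.20 for Ndufs7 (adjusted p = 0.0147), -0.19 for Cox7b (adjusted p = 0.016) and -0.19 for Cox6c (adjusted p = 0.0013). Of these, Ndufs7 is a core iron-sulfur subunit of complex I and the others are accessory subunits of complex I or IV. Leaving out Ctrl day 1 replicate 2 brought the 21 down to 6, and leaving out Fzd5KO day 1 replicate 2 or 3 brought them to 7. Without Ctrl day 1 replicate 1 there were 11 and without Fzd5KO day 1 replicate 1 there were 12. Lower calls over all genes dropped too, from 3313 of 14510 to 1964 of 14408 without Ctrl day 1 replicate 2. They were 2233 of 14462 and 2261 of 14465 without Fzd5KO day 1 replicates 2 and 3. Without replicate 1 they were 2666 of 14436 for Ctrl day 1 and 2295 of 14463 for Fzd5KO day 1. The call of Ndufa7 was lost without Fzd5KO day 1 replicate 1 (adjusted p = 0.0566) or Ctrl day 1 replicate 2 (adjusted p = 0.0514), and that of Cox6a1 with replicate 2 of either genotype or Fzd5KO replicate 3 at day 1 left out (adjusted p between 0.0557 and 0.0621). The calls of Ndufs7 and Cox7b were lost with replicate 2 of either genotype at day 1 left out, and that of Cox7b also without Ctrl replicate 1 (adjusted p between 0.0523 and 0.0621). Ndufa1, an X-linked accessory subunit of complex I, had 91.1, 92.1 and 87.5 TPM in Fzd5KO and 81.6, 77.1 and 83.1 TPM in Ctrl at day 1 (0.16, SE 0.05, adjusted p = 0.0248). Its call was lost with Fzd5KO replicate 1 or 2 or Ctrl replicate 2 at day 1 left out (adjusted p between 0.0718 and 0.0924).

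Cox7a2l, which helps to join complexes III and IV into a supercomplex (chr17:83501918-83517330), was the member that rose most at day 1 among those that passed, with 103, 99.8 and 101.5 TPM in Fzd5KO and 84.1, 86.0 and 82.3 TPM in Ctrl (0.27, SE 0.04, adjusted p = 0.000553). At day 3 it had 73.5, 79.6 and 74.8 TPM in Fzd5KO and 95.3, 93.7 and 93.5 TPM in Ctrl (-0.31, SE 0.04, adjusted p = 1.78e-05). These values stand beside those of a processed pseudogene, Gm6969 (chr12:24638669-24639010), whose 342 bases match the Cox7a2l transcript at 335. Gm6969 had 0.76, 0 and 1.03 TPM in Fzd5KO and 94.9, 91.2 and 86.6 TPM in Ctrl at day 1, and 78.0, 92.6 and 83.8 TPM in Fzd5KO and 112, 103 and 93.4 TPM in Ctrl at day 3. It was thus near 0 in the 3 Fzd5KO day 1 libraries and abundant in the other 9 (log2 change at day 1 -5.91, adjusted p = 1.21e-08). With its TPM added to Cox7a2l by length, a choice made after the data were seen, the ratio of Fzd5KO to Ctrl was 0.811 at day 3 and 0.899 at day 1, so the direction at day 1 turned. Summed in this way it averaged 103 ± 5.54 TPM at day 3 and 102 ± 1.67 TPM at day 1 in Fzd5KO, so its change over time in Fzd5KO of -0.41 as listed was absent from the sum. The day 1 call of Cox7a2l, that change over time and its interaction of -0.57 (adjusted p = 3.46e-06) are therefore uncertain.

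Over time within Fzd5KO, 30 nuclear members were higher at day 3 than at day 1 and 7 lower. These are 37.0% and 8.64% of the 81, near the 34.4% and 10.5% of all genes. The median of the nuclear members was 0.08 where all tested genes had 0.11. With median-of-ratios scaling 4 were higher and 23 lower (24.3% of all genes higher and 19.2% lower), and with quantile normalization 2 were higher and 50 lower (21.0% of all genes higher and 19.7% lower). In each of the 4 scalings 1 was higher, Cox6a1, and 7 were lower, Ndufa1, Ndufb11, Ndufc1, Uqcrh, Cox7a2l, Atp5g2 and Atp5md, together with 8 of the 13 mitochondrially encoded members, where Cox7a2l is uncertain because of Gm6969 (18.7% of all genes were higher in each and 10.4% lower). Cox6a1, the complex IV isoform of most tissues, had 640.0, 688 and 653 TPM at day 3 and 498, 469 and 461 TPM at day 1 in Fzd5KO (0.47, adjusted p = 3.46e-05). Of those higher as deposited, Ndufs4 changed by 0.40 (adjusted p = 8.75e-05) and Ndufb9 by 0.30 (adjusted p = 0.000148).

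Within Ctrl, 23 nuclear members were higher at day 3 than at day 1 (28.4%, against 25.0% of all genes). There were 3 lower (3.70%, against 11.0%), and the median was 0.09. With median-of-ratios scaling 3 were higher and 16 lower (12.2% of all genes higher and 17.6% lower). The 3 higher in each of the 4 scalings were Ndufa8, Uqcr11 and Atp5g2, and the 3 lower were Sdhd, Cox6b2 and Cox7a1 (11.9% of all genes were higher in each and 10.8% lower). Cox7a1 had 96.5, 93.9 and 91.7 TPM at day 3 and 137, 127 and 134 TPM at day 1 in Ctrl (-0.49, adjusted p = 3.04e-05). In Fzd5KO the level of Cox7a1 stood at 147 ± 1.93 TPM at day 3 and 140.0 ± 10.3 TPM at day 1. Atp5g2 averaged 117 ± 3.64 TPM at day 3 and 96.6 ± 3.77 TPM at day 1 in Ctrl (0.27, adjusted p = 0.00346), and 68.9 ± 5.17 TPM at day 3 and 89.1 ± 3.93 TPM at day 1 in Fzd5KO (-0.37, adjusted p = 0.000216).

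The interaction was positive for 14 of 81 nuclear members (17.3%, against 25.3% of all genes) and negative for 11 (13.6%, against 19.1%). Both shares are below those of all genes. With quantile normalization it was positive for 3 and negative for 46 (21.6% of all genes positive and 22.2% negative). In each of the 4 scalings it was positive for 2 and negative for 11 (18.5% of all genes positive and 17.6% negative). Cox7a1 differed by 0.56 (SE 0.07, adjusted p = 6.97e-05) and Cox6b2 by 1.07 (SE 0.26, adjusted p = 0.00543), the 2 positive in all 4. Ndufs4 differed by 0.37 (adjusted p = 0.00221) and Uqcrfs1 by 0.31 (adjusted p = 0.000442). Atp5g2 differed by -0.64 (SE 0.08, adjusted p = 5.25e-05). Its Fzd5KO effect was -0.75 at day 3 and -0.12 at day 1, the latter of which did not pass by itself (adjusted p = 0.148).

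Set side by side in 1 library, the genomes need no scaling between libraries. The summed TPM of the 13 mitochondrially encoded members over that of the 81 nuclear ones was 2.54, 2.43 and 2.30 in Fzd5KO and 3.08, 2.69 and 2.79 in Ctrl at day 3, and 3.48, 3.45 and 3.26 in Fzd5KO and 2.79, 3.07 and 3.15 in Ctrl at day 1. The ratio was thus lower in Fzd5KO at day 3 and higher in Fzd5KO at day 1, with no overlap on either day. Nuclear members summed to 15902 ± 260 TPM in Fzd5KO and 16572 ± 510 TPM in Ctrl at day 3, and mitochondrially encoded members to 38562 ± 1616 TPM in Fzd5KO and 47267 ± 3999 TPM in Ctrl. With the copies summed in, the ratio was 5.54 ± 0.252 in Fzd5KO and 6.18 ± 0.389 in Ctrl at day 3 and 6.98 ± 0.233 in Fzd5KO and 6.19 ± 0.249 in Ctrl at day 1. Over the 8 members without an abundant copy it was 0.929 ± 0.061 in Fzd5KO and 1.20 ± 0.102 in Ctrl at day 3, and 1.42 ± 0.064 in Fzd5KO and 1.23 ± 0.085 in Ctrl at day 1. Of these 8, mt-Atp8 shares its last 43 of 204 bases with the abundant Gm10925, so this sum is not wholly free of shared sequence.

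By complex, the gap between the genotypes at day 3 was widest in proportion for complex III, whose ratio was 1.32 ± 0.093 in Fzd5KO and 1.88 ± 0.124 in Ctrl, with 2.38 ± 0.136 in Fzd5KO and 2.12 ± 0.170 in Ctrl at day 1. For complex I it was 2.47 ± 0.154 in Fzd5KO and 2.84 ± 0.168 in Ctrl at day 3, for complex IV 4.28 ± 0.264 in Fzd5KO and 4.87 ± 0.306 in Ctrl, and for complex V 1.37 ± 0.101 in Fzd5KO and 1.71 ± 0.225 in Ctrl. None of these overlapped at day 3 as deposited. The ratio of complex III rests on 1 mitochondrially encoded gene, mt-Cytb, and the other ratios mostly on their most abundant genes. In Fzd5KO at day 3, mt-Co1 made up 19917 of 20395 TPM for complex IV. For complex I, mt-Nd1 was 4032 and mt-Nd3 2846 of 8705 TPM. With the copies summed in, complex IV had 12.1 ± 0.607 in Fzd5KO and 13.3 ± 0.761 in Ctrl at day 3, which did overlap. At day 1 as deposited, complex IV had 6.05 ± 0.289 in Fzd5KO and 5.40 ± 0.135 in Ctrl and complex V 1.91 ± 0.052 in Fzd5KO and 1.56 ± 0.195 in Ctrl, both without overlap, while the ratios of complexes I and III overlapped. With the copies summed in, complex I no longer overlapped at day 1, at 4.24 ± 0.073 in Fzd5KO and 3.80 ± 0.196 in Ctrl. No test was made of a sum or ratio over the members.

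**Figure D4:**
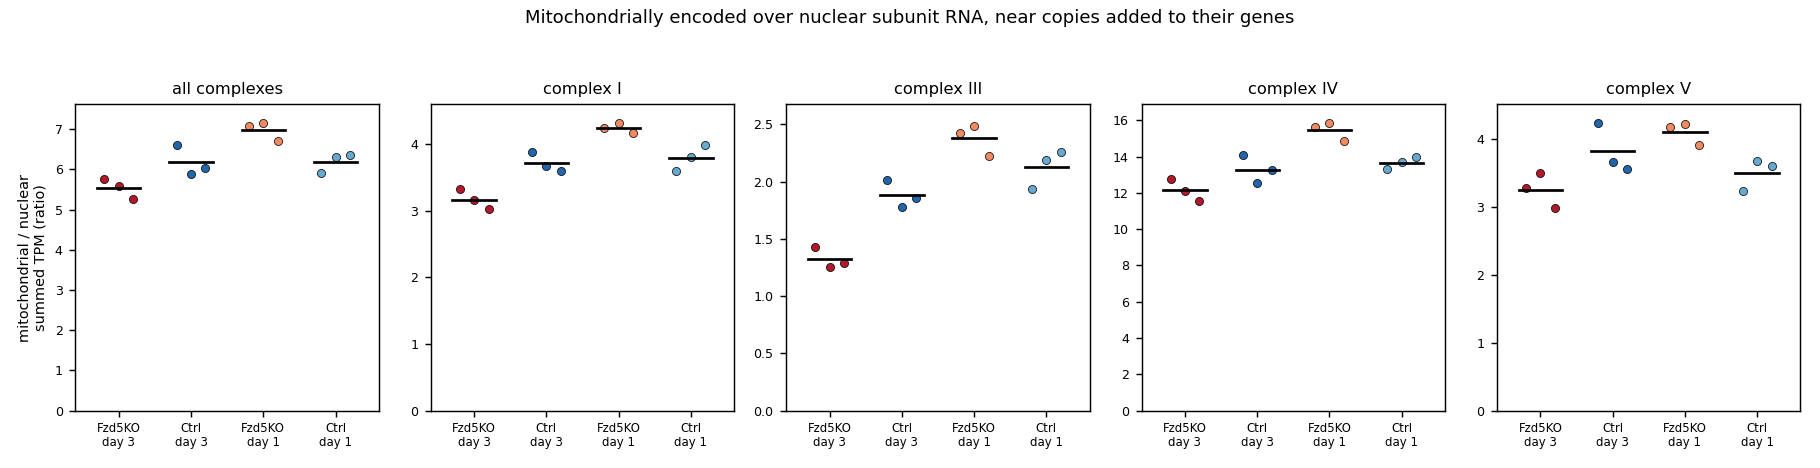
Ratio of the summed TPM of mitochondrially encoded members, with their near-identical copies added, to that of nuclear members in each library (points) with the group mean (line), over all members and for complexes I, III, IV and V, in 4 groups on axes from 0. Over all members the Fzd5KO day 3 libraries lie at 5.26 to 5.76, below the other 9, and the Fzd5KO day 1 libraries at 6.72 to 7.16, above the other 9.

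Several subunits exist as paralogous isoforms, and the isoforms of 1 subunit did not move together. For the rotor ring subunit, Atp5g1 had 279, 307 and 273 TPM in Fzd5KO and 326, 325 and 320.0 TPM in Ctrl at day 3 (-0.18, adjusted p = 0.0185), Atp5g2 fell further, and Atp5g3 had 305, 309 and 315 TPM in Fzd5KO and 295, 293 and 282 TPM in Ctrl. These genes encode the same mature protein and differ in their import sequences. For the Cox7a subunit, Cox7a2, the form of most tissues, averaged 224 TPM in Fzd5KO and 217 TPM in Ctrl at day 3 and its change of 0.04 did not pass (adjusted p = 0.458), beside the rise of Cox7a1. Cox6a1 (0.04, adjusted p = 0.587) and Cox6b1 (0.04, adjusted p = 0.439), the broad forms, did not pass at day 3 either, nor did Cox8a (-0.03, adjusted p = 0.677) and Cox4i1 (-0.03, adjusted p = 0.553). Ndufa4, now placed in complex IV, fell by 0.17 (adjusted p = 0.0169). Their tissue-restricted paralogs Cox4i2, Cox6a2, Cox8b and Ndufa4l2 were among the 9 genes below the filter, with group means of at most 0.57 TPM, as were Cox8c, Cox7b2, Cox6c2, Ndufa11b and Ndufs6b. Among nuclear members with near-identical copies elsewhere, Ndufb4 and Ndufb4c share 390 identical bases, so their separate values are uncertain, and likewise Cox7c beside Gm12338, Atp5l beside Gm10221 and Ndufs5 beside BC002163.

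**Figure D5:**
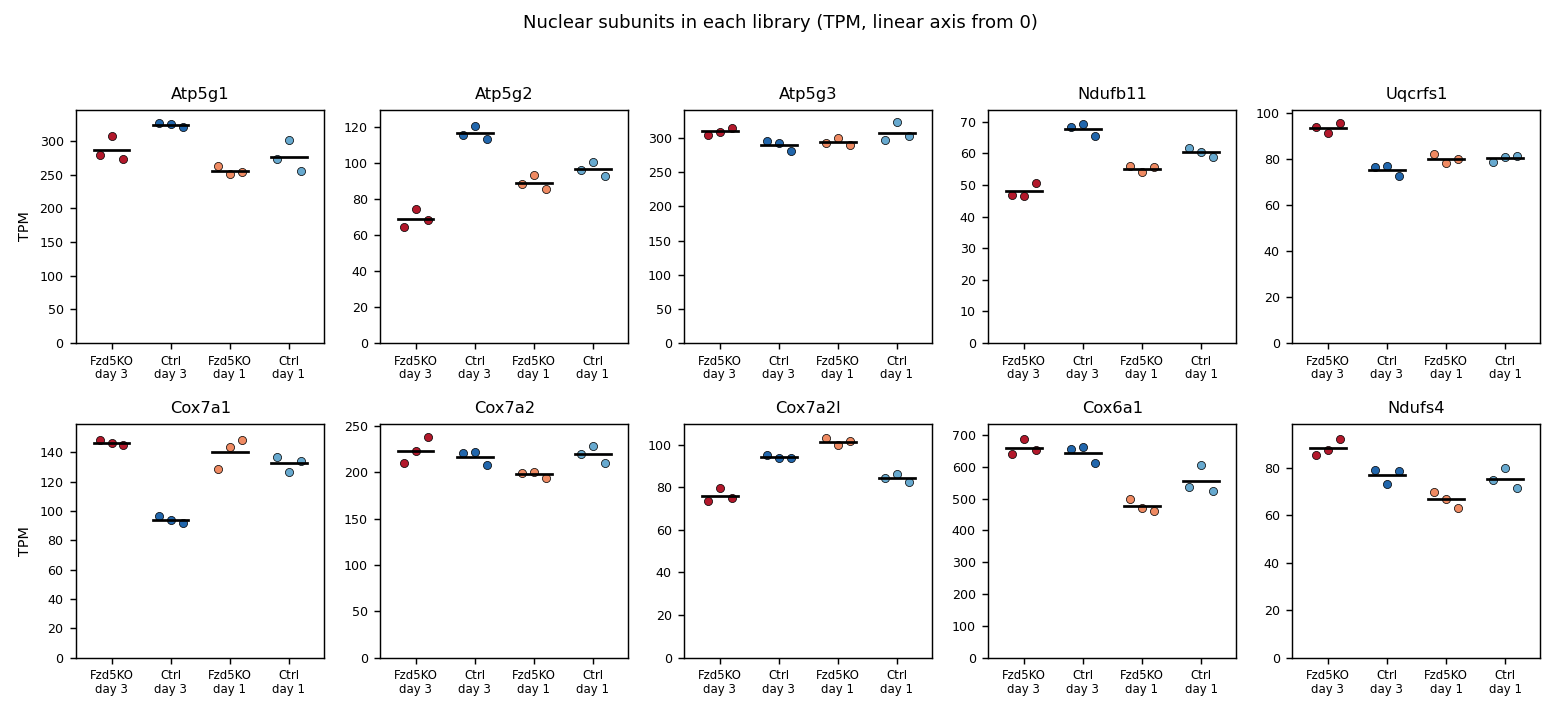
TPM of nuclear members in each library (points) with the group mean (line), 1 panel per gene and 4 groups per panel, each axis starting at 0. Cox7a1 lies at 145 to 149 TPM in Fzd5KO and 91.7 to 96.5 TPM in Ctrl at day 3, and Atp5g2 at 64.2 to 74.4 TPM in Fzd5KO and 114 to 121 TPM in Ctrl.

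Promoter windows (250 bases before to 50 after the start, RefSeq, GRCm38.p6) were matched for 66 of 80 nuclear members. The NRF1 palindrome (GCGC, any 2 bases, GCGC), read on both strands, was present in 18 of the 66 (27.3%), against 9.61% of 17492 coding genes, and the ETS core CCGGAAG, the motif of GABPA and related factors, in 17 (25.8%), against 12.9%. At least 1 of them was present in 31 (47.0%), against 20.6% of coding genes. Promoters are shown for the nuclear members that moved most in each direction among those above 5 TPM at day 3. That of Atp5g2 (chr15:102670998-102671297, minus strand) holds 1 NRF1 palindrome, in capitals, and that of Cox7a1 (chr7:30183921-30184220, plus strand) holds neither motif. The Atp5g2 window lies inside the gene span given above, at a RefSeq start that is not the 5′ end of that span.
Atp5g2: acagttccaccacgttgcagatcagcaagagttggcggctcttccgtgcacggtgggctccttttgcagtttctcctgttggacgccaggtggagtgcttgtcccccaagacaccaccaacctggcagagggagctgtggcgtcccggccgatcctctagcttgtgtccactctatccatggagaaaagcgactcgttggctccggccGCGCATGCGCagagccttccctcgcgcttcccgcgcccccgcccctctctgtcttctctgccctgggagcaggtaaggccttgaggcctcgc
Cox7a1: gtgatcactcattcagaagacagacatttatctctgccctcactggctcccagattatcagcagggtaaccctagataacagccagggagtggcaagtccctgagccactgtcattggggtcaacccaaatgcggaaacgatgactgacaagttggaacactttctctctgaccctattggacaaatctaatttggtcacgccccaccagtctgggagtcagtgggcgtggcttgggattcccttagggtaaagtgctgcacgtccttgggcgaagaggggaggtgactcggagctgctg
A match is a description of the letters and not of binding. Of the 10 nuclear members called in the same direction in each of the 4 scalings at day 3, Ndufv2 and Atp5g2 held the NRF1 palindrome and Uqcr11 the ETS core.

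Genes that act in the copying and transcription of mitochondrial DNA and in the stability of its RNA were mostly lower in Fzd5KO at day 3. A link to the lower mitochondrial transcripts was not tested. Of 20 tested, 13 fell and 1 rose (median -0.43), where 38.5% of all genes were lower and 24.3% higher, and 11 were lower in each of the 4 scalings, where 25.1% of all genes were. The examples named from here on were chosen after their values were seen. Polrmt, the mitochondrial RNA polymerase, averaged 23.4 ± 2.75 TPM in Fzd5KO and 43.8 ± 1.53 TPM in Ctrl (-0.88, adjusted p = 2.13e-05). Lrpprc, which stabilizes mitochondrial mRNAs, averaged 34.7 ± 0.956 TPM in Fzd5KO and 54.5 ± 2.45 TPM in Ctrl (-0.64, adjusted p = 2.11e-07). Tfam, which packages and helps to transcribe the DNA, averaged 17.1 ± 3.30 TPM in Fzd5KO and 29.2 ± 3.97 TPM in Ctrl (-0.75, adjusted p = 0.00205), and Twnk, its helicase, changed by -0.83 (adjusted p = 4.51e-06). Mterf2 was the one that rose (0.74, adjusted p = 2.75e-05). At day 1, 2 of this list fell and 0 rose (22.8% and 2.13% of all genes), with 0 lower in median-of-ratios scaling, and the interaction was negative for 9 and positive for 1 (19.1% and 25.3% of all genes).

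Assembly factors, which build the complexes without being part of them, are given by complex at day 3, with the same shares of all genes as background and no test between the lists. Those of complex I had 10 of 14 lower and 0 higher as deposited (median -0.35), but with median-of-ratios scaling 3 were lower and with quantile normalization 1, and only Ecsit in each of the 4 scalings (-0.41, adjusted p = 0.0017). Those of complex III had 3 of 6 lower, Bcs1l, Uqcc2 and Uqcc3, also in each of the 4, and Bcs1l, which inserts the Rieske protein, averaged 4.44 ± 0.284 TPM in Fzd5KO and 8.57 ± 0.520 TPM in Ctrl (-0.82, adjusted p = 2.55e-06). Those of complex IV were split, with 5 of 20 higher and 6 lower as deposited and 8 higher and 2 lower with median-of-ratios scaling. Among them Cox11 (0.56, adjusted p = 0.000125) and Sco1 (0.46, adjusted p = 0.000762) were higher and Cox20 (-0.40, adjusted p = 0.000573) was lower. In each of the 4 scalings 3 were higher, Coa5, Cox11 and Sco1, and 2 lower, Cox20 and Sco2 (20.8% of all genes higher and 25.1% lower). Of 4 for complex II 1 fell and 0 rose as deposited, while 1 was higher and 0 lower with median-of-ratios scaling, and of 3 for complex V 1 rose, Atpaf1 (0.32, adjusted p = 0.000407). At day 1 these lists had 2, 1 and 1 lower for complexes I, III and IV and 0 for the others as deposited. In each list 0 were higher. Of all genes 22.8% were lower and 2.13% higher at day 1. With median-of-ratios scaling 0 were lower in any list.

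Among 10 regulators of respiratory chain genes, 3 rose and 5 fell at day 3, where 24.3% of all genes rose and 38.5% fell, so these counts are near the background. Ppargc1a, the coactivator PGC-1alpha, averaged 38.8 ± 1.96 TPM in Fzd5KO and 25.5 ± 2.66 TPM in Ctrl (0.59, adjusted p = 2.45e-05), and Esrra, a nuclear receptor it works with, 119 ± 2.58 TPM in Fzd5KO and 84.5 ± 7.04 TPM in Ctrl (0.49, adjusted p = 1.4e-05). Its relative Ppargc1b moved the other way, at 12.03 ± 1.64 TPM in Fzd5KO and 23.2 ± 1.82 TPM in Ctrl (-0.90, adjusted p = 2.02e-05), as did Nrf1, whose palindrome was searched for, at 18.0 ± 1.30 TPM in Fzd5KO and 25.1 ± 2.37 TPM in Ctrl (-0.46, adjusted p = 0.00192). At day 1, 3 of the 10 fell and 0 rose as deposited (22.8% and 2.13% of all genes). With median-of-ratios scaling 2 were higher and 0 lower.

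Of 13 citric acid cycle genes, whose enzymes feed electrons to the chain, 7 rose and 4 fell at day 3 as deposited (24.3% and 38.5% of all genes), and with quantile normalization 6 were higher and 6 lower. Among them were Cs, citrate synthase, at 394 ± 8.12 TPM in Fzd5KO and 215 ± 7.68 TPM in Ctrl (0.87, adjusted p = 1.93e-09), and Idh3b, of the NAD-linked isocitrate dehydrogenase, which fell (-0.39, adjusted p = 2.11e-05). Of 6 tested electron carriers and their dehydrogenases 5 rose and 1 fell as deposited. With quantile normalization 2 were higher and 1 lower, and only Cycs and Gpd2 were higher in each of the 4 scalings. Gpd2, the mitochondrial glycerol-3-phosphate dehydrogenase, averaged 222 ± 10.1 TPM in Fzd5KO and 88.8 ± 6.72 TPM in Ctrl (1.31, adjusted p = 3.89e-09), Cycs, cytochrome c, 221 ± 8.80 TPM in Fzd5KO and 126 ± 5.18 TPM in Ctrl (0.81, adjusted p = 2.58e-07), and Dhodh was the one that fell (-0.47, adjusted p = 0.000424). At day 1, 7 of the 13 citric acid cycle genes fell and 0 rose as deposited (22.8% and 2.13% of all genes), but with median-of-ratios scaling 2 were higher and 0 lower, and 0 were lower in each of the 4 scalings. Of the 6 carriers 0 passed at day 1 in either direction as deposited, and 2 were higher with median-of-ratios scaling.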

How the data were processed

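The authors deposited 1 table of TPM values per gene, with 1 column for each of 12 libraries, 55421 genes and 0 columns of other samples. Per the labels' protocols, total RNA purified with an RNeasy kit went into a TruSeq Stranded Total RNA library kit. Per the submitters' processing notes, bcl2fastq 2.18, STAR 2.7.3a, RSEM and the build mm10 were used. No source used here gives the annotation, and depth is unknown, so no counting interval or limit for a value of 0 is given.

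Gene identifiers were matched to GENCODE M21 (55240 of 55421), and 23594 genes at 0 in every library were among those not tested. The 14510 genes that reached 1 TPM in 3 or more libraries were put on the log2(TPM + 1) scale and fitted with limma 3.58.1 (R 4.3.3, intensity trend, 4 group means, all 12 libraries), with Benjamini-Hochberg adjustment over all tested genes in each comparison and calls under 0.05. On this scale changes of low genes are understated. Near copies were found with BLAST 2.17.0 (99% identity over 90% of a mitochondrial gene, or 97% over 150 bases for nuclear members). Tables were joined with Python 3.11.15 and pandas 2.3.3. The script was tested on simulated data.

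Named members were, in each comparison, up to 10 rises and 10 falls of at least 5 TPM in the higher group (5 each way for the interaction), plus all mitochondrially encoded members, complex II and paralogous isoforms. The members and gene lists were chosen with earlier results of these data known. Alternatives were the pseudocount (0.1, 5), the filter (none, 5 TPM), the scalings, sums with copies, the groups fitted, a replicate block and leaving out each library. The last scaling, without copies too, and the copy sums by length for Cox7a2l and Atp5g2 were chosen after the data were seen. Protein sequences were not used here.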

Additional observations from a re-analysis of the deposited data

Results flagged for a closer look

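The items below had an effect of Fzd5KO that differed between the days by the limma interaction test (adjusted over all tested genes), given as the log2 effect at day 3 minus that at day 1. On the positive side were Cox6b2 (1.07), Cox7a1 (0.56), Ndufs4 (0.37), Uqcrfs1 (0.31) and Cox6a1 (0.26), of which the last lost its call without Fzd5KO day 3 replicate 2, Ctrl day 3 replicate 3 or Fzd5KO day 1 replicate 3 (adjusted p between 0.0504 and 0.0533). On the negative side were mt-Atp6 (-1.37), mt-Nd4l (-0.93), mt-Nd2 (-0.72), mt-Cytb (-0.71) and Atp5g2 (-0.64). The value of mt-Atp6 is as listed and was much smaller in size summed with its copy, and mt-Cytb did not pass with quantile normalization. Gm6969, the pseudogene that shares most of its bases with Cox7a2l, differed by 5.64, being near 0 TPM in the 3 Fzd5KO day 1 libraries and abundant in the other 9.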

How the results depend on the processing

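Of 74 named calls, all 74 kept their direction and stayed past the threshold with pseudocounts of 0.1 or 5 or a filter of 5 TPM. In every fit without 1 library 56 did so. All 74 were also kept with copies summed in. That fit added copies only to mitochondrially encoded members, so it left the values of nuclear members as they were. It therefore says nothing of Cox7a2l, whose direction at day 1 turned with Gm6969 added. Scaling moved the counts most, and the cause was not tested. At day 3 (nuclear members 9 higher, 34 lower) quantile normalization gave 4 and 57, median-of-ratios scaling 33 and 7, and rescaling also without the copies 5 higher. At day 1 (2 higher, 21 lower) quantile gave 5 and 4, median-of-ratios 22 and 0, rescaling 1 lower, rescaling without the copies 5 and 1, and no filter 11 lower, where mitochondrially encoded members (0 called) had 5 with median-of-ratios and 1 with only the groups compared. For day 3 against day 1 in Fzd5KO (30 higher, 7 lower) quantile gave 2 and 50, median-of-ratios 4 and 23, rescaling 4 and 29, and rescaling without the copies 2 and 40. In Ctrl (23 higher, 3 lower) no filter gave 15 higher, only the groups compared 13, median-of-ratios 3 and 16, quantile 7 lower, rescaling 8 and rescaling without the copies 5 lower, while mitochondrially encoded calls (1) were 0 with no filter, 3 with median-of-ratios, 0 with only the groups compared and 3 with copies summed. For the interaction (14 positive, 11 negative) quantile gave 3 and 46, rescaling 4 and 34, and rescaling without the copies 2 and 40. No fit of only the groups compared exists there. Calls over all 14510 genes moved as well. Rescaling called 1617 lower at day 1, and over time in Fzd5KO 3153 higher and 3080 lower. For the interaction it called 2878 positive and 4037 negative. Rescaling without the copies gave 648 higher and 1290 lower at day 1 and 2815 and 3478 over time in Fzd5KO. The ratio of genomes was 5.54 in Fzd5KO and 6.18 in Ctrl at day 3 and 6.98 in Fzd5KO and 6.19 in Ctrl at day 1 with copies, against 2.43, 2.85, 3.40 and 3.00 without.

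The sign turned with quantile normalization for Sdhd (-0.0088) and Sdhb (-0.036) at day 3 and, over time in Fzd5KO, for Ndufa11 (-0.061), Ndufb8 (-0.084), Uqcrfs1 (-0.071) and Ndufs1 (-0.12). It turned with rescaling without the copies for Atp5g3 (-0.00073) and Atp5a1 (-0.0105) at day 3 and, over time in Fzd5KO, for Cox6b1 (-0.019), Ndufs1 (-0.018) and Cox4i1 (-0.0199), and with median-of-ratios scaling for Uqcrc2 at day 1 (0.0011).

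Leaving out 1 library gave 7 to 10 nuclear members higher, 19 to 36 lower and 7 to 9 mitochondrially encoded at day 3, with 19 lower without Fzd5KO day 3 replicate 1 and 22 without Ctrl day 3 replicate 1 or 2. At day 1 it gave 1 to 2, 6 to 25 and 0 to 1, over time in Fzd5KO 22 to 30, 3 to 7 and 9 to 10, over time in Ctrl 13 to 26, 3 to 4 and 0 to 2, and for the interaction 9 to 19, 8 to 13 and 8 to 10. Lower calls over all genes at day 3 were 5584 of 14510 with every library and 5092 of 14376 without Fzd5KO day 3 replicate 1. They were 4876 of 14381 and 5027 of 14373 without Ctrl day 3 replicates 1 and 2. The ratio ranged from 2.37 to 2.49 in Fzd5KO and 2.74 to 2.93 in Ctrl at day 3 and from 3.35 to 3.47 in Fzd5KO and 2.93 to 3.11 in Ctrl at day 1.

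Libraries with the same replicate number did not deviate together (correlations between -0.07 and 0.03). Libraries with different numbers had similar values (between -0.05 and 0.05). These correlations cannot tell whether the numbers mark a shared origin. With a replicate block the counts were 9 higher, 33 lower and 9 mitochondrially encoded at day 3, 2, 18 and 0 at day 1, 30, 6 and 10 over time in Fzd5KO, 27, 3 and 1 over time in Ctrl, and 14, 11 and 9 for the interaction, and the calls of Cox5a at day 3 and Ndufs4 at day 1 were lost.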
